A study of Mus musculus with 16 samples.

Results

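The C/EBP and Krüppel-like transcription factors examined here are 10 genes, namely Cebpa, Cebpb, Cebpd, Klf2, Klf4, Klf6, Klf9, Klf10, Klf13 and Klf15. They were chosen with earlier results of these data known, and were taken by symbol from an array table that covered 18193 genes. In all, 25 of its 45037 probe sets named one of them, and each gene was represented by its probe set with the highest mean over all 16 arrays. RNA came from whole lung and whole cerebellum of C57BL/6J mice at postnatal day 7, with 4 arrays in each group. The groups were dexamethasone lung, vehicle lung, dexamethasone cerebellum and vehicle cerebellum. Dexamethasone is a synthetic glucocorticoid, described in the labels as given chronically, and its dose and schedule, the vehicle, and the sex and litter of the animals are not stated in the labels used here. Whole organs hold many cell types, so fewer cells of a type and less RNA per cell cannot be told apart in these values.

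C/EBP proteins are leucine-zipper factors that bind DNA as dimers. They are known for driving the maturation of fat cells, granulocytes, hepatocytes and lung epithelium, and Cebpb and Cebpd also for inducing acute phase genes. Krüppel-like factors bind GC-rich and CACCC sequences through zinc fingers and can activate or repress genes. Klf9, Klf15 and Cebpd are known glucocorticoid-induced genes, Klf10 is an early response gene of TGF-beta signalling, and Klf2 and Klf4 control gene expression in endothelium.

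Values are log2 signals from robust multi-array averaging (RMA), and a difference of 1 is a change of 2-fold. Each gene was tested with limma on all 16 arrays, and it was called at a Benjamini-Hochberg adjusted p under 0.05 over all genes. Errors beside a log2 change are moderated standard errors. Levels of different genes cannot be compared, since probes differ in brightness. The labelled tissues matched their markers, since all 4 measured alveolar type 2 genes were called higher in vehicle lung than in vehicle cerebellum, and all 4 granule neuron genes lower. Of 8 known glucocorticoid-induced genes used as a check, 6 were called higher in dexamethasone lung. In dexamethasone cerebellum 0 of the 8 were called in either direction. One of them, Fkbp5, a chaperone of steroid receptors, averaged 10.30 ± 0.83 in dexamethasone lung and 7.97 ± 0.23 in vehicle lung (SD, n = 4 each). In cerebellum Fkbp5 averaged 9.07 ± 0.04 with dexamethasone and 9.08 ± 0.08 with vehicle (SD, n = 4 each). Xist, which marks female tissue, was high on 3 of 4 dexamethasone lungs and 1 of 4 vehicle lungs, and on 2 of 4 dexamethasone cerebella and 1 of 4 vehicle cerebella. The gap between the 3' and 5' control probe sets of Gapdh, which widens as RNA degrades, was 0.45 to 0.71 in dexamethasone lung and 0.84 to 1.04 in vehicle lung, without overlap. In cerebellum it was 0.05 to 0.18 with dexamethasone and 0.04 to 0.52 with vehicle. The part of sex was covered by an alternative fit, and the part of RNA quality in the lung results was not tested.

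**Figure D1:**
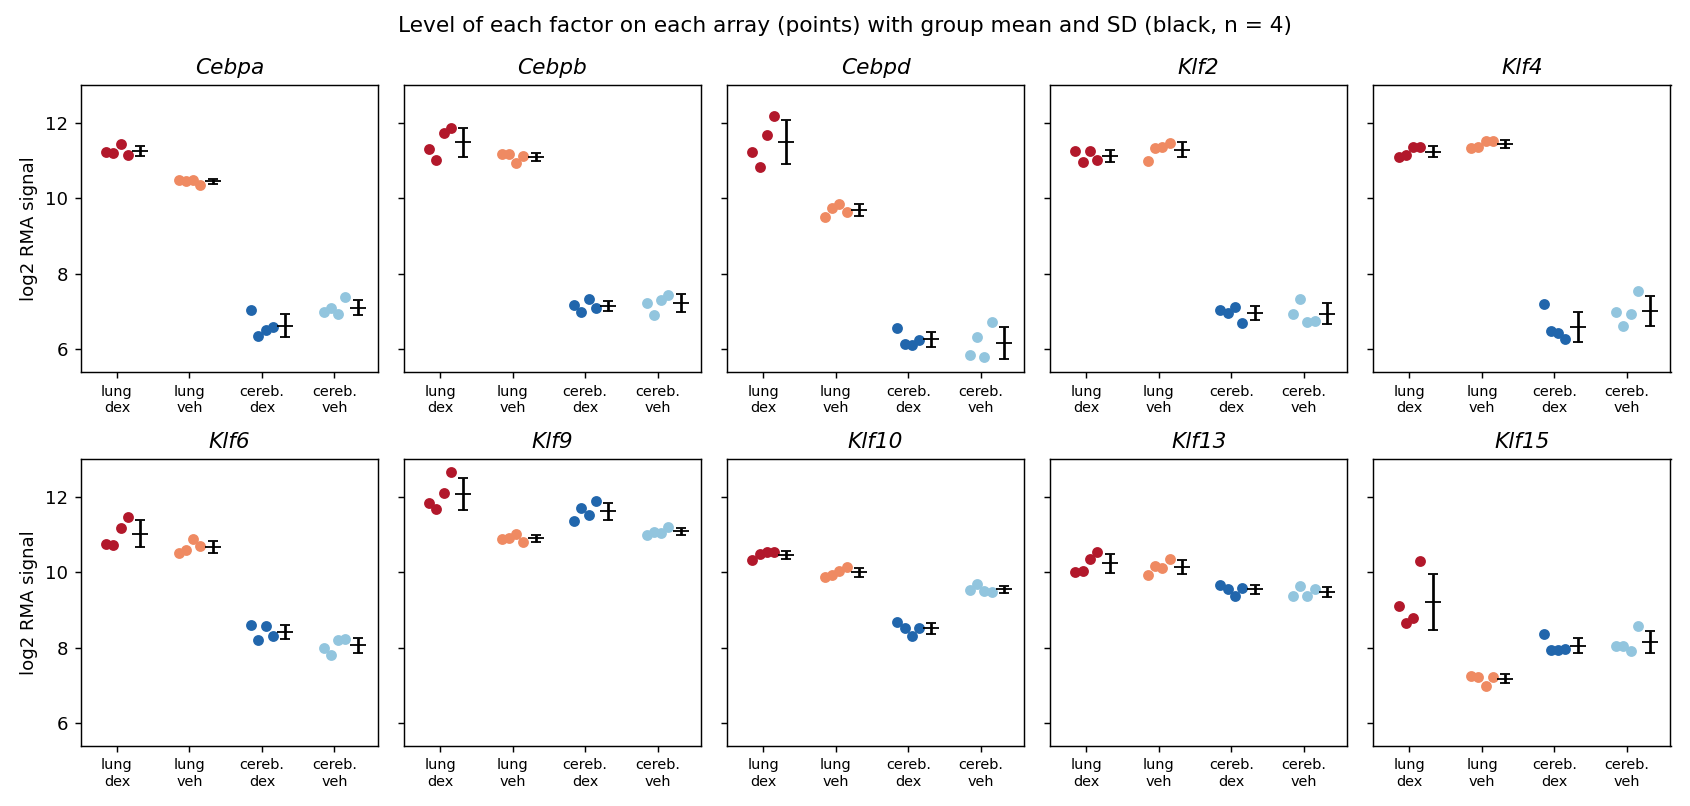
Log2 RMA signal of each factor (vertical axis) on each of the 16 arrays, in dexamethasone lung, vehicle lung, dexamethasone cerebellum and vehicle cerebellum. Points are arrays and black bars are the group mean with its SD (n = 4). Cebpd, Cebpa, Klf9 and Klf15 lie apart between the lung groups, and Klf10 moves in opposite directions in the 2 tissues.

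Most of the factors were expressed at a higher level in neonatal lung than in neonatal cerebellum before any drug effect. In vehicle mice 8 of the 10 were called higher in lung and 1 lower, while 28% of all genes were called higher and 29.7% lower. The largest differences were those of Klf4 and Klf2, factors of endothelium and, for Klf4, of epithelium too. Klf4 averaged 11.44 ± 0.10 in vehicle lung and 7.02 ± 0.39 in vehicle cerebellum (SD, n = 4 each), a 21.4-fold difference. Klf2 averaged 11.29 ± 0.20 in vehicle lung and 6.94 ± 0.28 in vehicle cerebellum (SD, n = 4 each), a 20.4-fold difference. The C/EBP genes followed with log2 differences of 3.35 ± 0.13 for Cebpa, 3.87 ± 0.16 for Cebpb and 3.52 ± 0.24 for Cebpd. Klf6, which acts in tissue repair and growth control, was higher in lung by 2.61 ± 0.16. The adjusted p-values of these 6 genes ran up to 1e-09.

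The other 4 factors differed little between the organs, or the other way. Klf13, a regulator of chemokine expression in T cells, was higher in vehicle lung by 0.66 ± 0.13 on the log2 scale (adjusted p = 0.000231). Klf10 was higher there by 0.45 ± 0.10 (adjusted p = 0.000536). Klf15 was the member called lower in lung, at 7.17 ± 0.12 in vehicle lung and 8.14 ± 0.29 in vehicle cerebellum (SD, n = 4 each; adjusted p = 0.00428). Klf9, which mediates effects of thyroid and steroid hormones in neurons, averaged 10.90 ± 0.09 in vehicle lung and 11.08 ± 0.09 in vehicle cerebellum (SD, n = 4 each). Its arrays overlapped between the tissues, and the log2 difference of -0.18 had a 95% interval of -0.53 to 0.17 (adjusted p = 0.384).

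In lung, dexamethasone was followed by higher levels of 5 of the 10 factors, namely Klf15, Cebpd, Klf9, Cebpa and Klf10, and by lower levels of none. Over all genes, 15.7% were called higher in lung and 15.5% lower, and the median log2 change was 0.05, against a median of 0.43 over the 10 members. The same 5 members had arrays that did not overlap between the lung groups, which held for 30.6% of all genes in either direction. Markers of proliferating cells moved in lung beside these factors, with 4 of 4 called lower at a log2 summed level of 9.54 to 10.55 in dexamethasone lungs and 12.23 to 12.64 in vehicle lungs, and their part in the results was not tested.

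Klf15, which in liver and muscle switches on amino acid breakdown, had the widest change. Its levels were 9.09, 8.66, 8.79 and 10.30 in the dexamethasone lungs, which carry the array labels B28, B31, B40 and B46 in that order here and below. In the vehicle lungs B12, B14, B19 and B22, Klf15 stood at 7.26, 7.23, 6.99 and 7.22. Every dexamethasone lung was above every vehicle lung, with B46 well above the other dexamethasone arrays. The log2 change of Klf15 was 2.04 ± 0.26, a 4.10-fold rise (adjusted p = 1.93e-05, rank 105 from the top of 18193 genes). Without B46 the change was 1.67.

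Cebpd, an early and short-lived factor of fat cell and acute phase programmes, rose next. Its levels were 11.24, 10.83, 11.68 and 12.19 in dexamethasone lungs, and 9.50, 9.75, 9.86 and 9.64 in vehicle lungs. The groups lay well apart, and B46 was again highest and B31 lowest of the treated lungs. This is a log2 change of 1.80 ± 0.24, or 3.47-fold (adjusted p = 2.82e-05).

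Klf9 had levels of 11.84, 11.68, 12.10 and 12.66 in dexamethasone lungs, and 10.87, 10.91, 11.02 and 10.80 in vehicle lungs. The vehicle arrays lay close together, and the treated arrays were spread out above them with B46 at the top. Klf9 thus rose by 1.18 ± 0.17 on the log2 scale, or 2.26-fold (adjusted p = 4.46e-05).

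Cebpa, which supports the differentiation of alveolar type 2 cells, had levels of 11.23, 11.20, 11.43 and 11.15 in dexamethasone lungs, and 10.49, 10.46, 10.50 and 10.35 in vehicle lungs. Here B46 was the lowest treated array, so its position differed from that in Klf15, Cebpd and Klf9. The log2 change was 0.80 ± 0.13, or 1.75-fold (adjusted p = 0.000206).

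Klf10 had levels of 10.31, 10.47, 10.53 and 10.54 in dexamethasone lungs, and 9.88, 9.92, 10.04 and 10.13 in vehicle lungs. Both groups were tight and lay side by side without overlap. Klf10 rose by 0.47 ± 0.10, or 1.39-fold (adjusted p = 0.00114).

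The other 5 factors were not called in lung, with log2 changes of -0.20 to 0.38 and adjusted p-values of 0.0854 to 0.624. Cebpb, the partner of Cebpd in acute phase and fat cell programmes, had levels of 11.31, 11.01, 11.74 and 11.87 in dexamethasone lungs, and 11.19, 11.17, 10.93 and 11.12 in vehicle lungs. B31 lay among the vehicle arrays and the other treated arrays above them. The log2 change of Cebpb was 0.38 ± 0.16 (adjusted p = 0.0854), and without B31 it was 0.54 and called (adjusted p = 0.0107). In Klf6 both B28 and B31 lay among the vehicle arrays, and its log2 change was 0.36 ± 0.16 (adjusted p = 0.101) and 0.46 without B31 (adjusted p = 0.0426). Klf2 changed by -0.17 with a 95% interval of -0.47 to 0.13, Klf4 by -0.20 with an interval of -0.60 to 0.20, and Klf13 by 0.09 with an interval of -0.17 to 0.36. For these 3 genes the lung groups overlapped.

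A single array stood at the edge of its group for many of the factors. B46 was the highest dexamethasone lung for 8 of the 10 members and for 30.5% of all genes. It was also the lowest for 1 member and for 35.3% of all genes. B31 was the lowest for 6 members and for 23.7% of all genes. With B46 left out, 5 members were still called higher in lung, and with B31 left out 7 were, with Cebpb and Klf6 added.

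**Figure D2:**
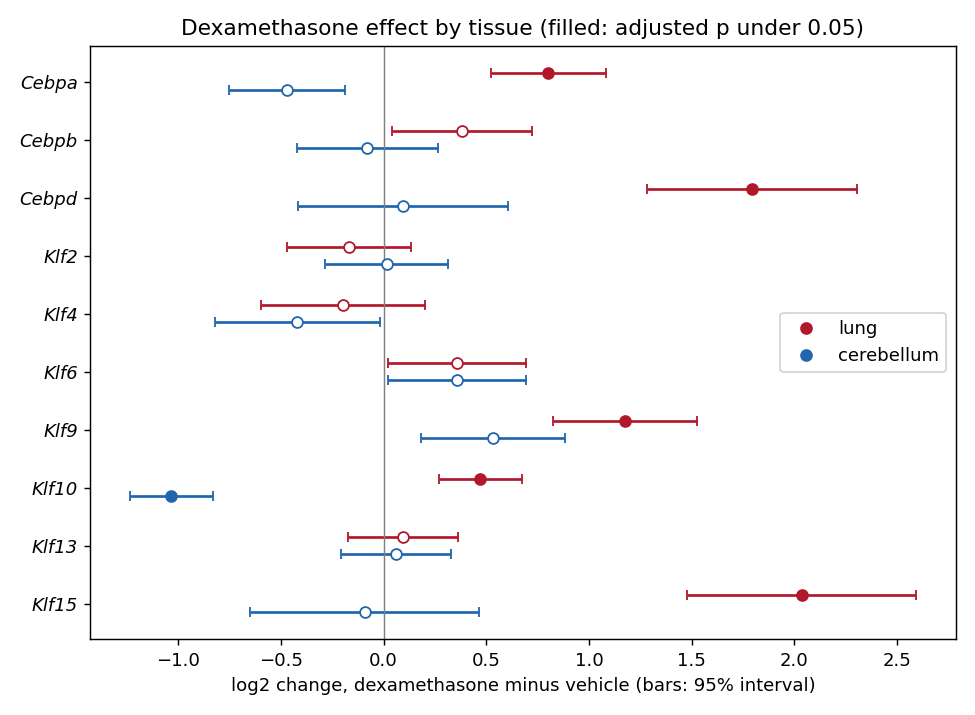
Log2 change with dexamethasone (dexamethasone minus vehicle, horizontal axis) of each factor in lung (red, upper point) and cerebellum (blue, lower point), with 95% intervals. Filled points passed an adjusted p of 0.05. Of the 10 factors 5 passed in lung, all to the right of 0, and only Klf10 passed in cerebellum, at -1.03.

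The DNA just before the start sites of 3 members that rose together in lung is shown next, to let their promoters be read beside the values. Windows of 300 bases, 250 before the start and 50 after it, came from RefSeq with build GRCm38.p6 and were found for 8 of the 10 members. Cebpd and Klf10 were not matched. Only the 250 bases before the start are printed, 5′ to 3′ on the plus strand. Capitals mark matches to CACCC, the Krüppel-like factor box, or TGACG, the core of the cAMP response element, on either strand, so that GGGTG and CGTCA are the same motifs read from the other strand. Klf15 spans chr6:90462326-90462575, Klf9 spans chr19:23140976-23141225, and Cebpa spans chr7:35119043-35119292.
Klf15: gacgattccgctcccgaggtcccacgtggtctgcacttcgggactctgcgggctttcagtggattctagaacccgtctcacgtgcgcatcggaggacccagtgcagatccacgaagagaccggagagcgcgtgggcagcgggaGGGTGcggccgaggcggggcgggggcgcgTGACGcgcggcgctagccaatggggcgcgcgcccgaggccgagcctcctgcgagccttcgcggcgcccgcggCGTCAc
Klf9: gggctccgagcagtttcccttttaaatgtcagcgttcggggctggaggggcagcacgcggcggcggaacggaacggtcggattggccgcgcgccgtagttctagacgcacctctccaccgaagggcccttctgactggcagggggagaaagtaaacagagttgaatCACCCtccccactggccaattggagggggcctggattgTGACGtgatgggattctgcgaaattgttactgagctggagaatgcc
Cebpa: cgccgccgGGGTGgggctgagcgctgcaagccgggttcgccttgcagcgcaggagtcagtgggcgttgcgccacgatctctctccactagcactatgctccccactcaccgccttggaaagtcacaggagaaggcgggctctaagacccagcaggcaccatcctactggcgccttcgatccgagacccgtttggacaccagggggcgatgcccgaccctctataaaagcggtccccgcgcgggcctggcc
Over the 300-base windows, CACCC was present in 6 of the 8 members and in 57.5% of 32851 windows of that length. TGACG was also present in 6 of the 8, and in 20.8% of all windows. The glucocorticoid receptor core AGAACA and the C/EBP core TTGCNNAA had no match in the 8 windows, against 19% and 10.8% of all windows. The members' windows were GC-rich, at 63.0% to 80.7% G or C against a median of 52.7% over all windows. Counted from the start site, the GGGTG match of Klf15 begins at -107 and its TGACG match at -78. The CACCC match of Klf9 begins at -84 and its TGACG match at -46. The motifs of Cebpb overlap at one place, where a CGTCA match runs into a CACCC match. These matches are letters in a window, and no binding was measured.

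In cerebellum, Klf10 fell, and none of the other 9 factors was called. Over all genes, 2.84% were called higher and 1.97% lower, with a median log2 change of 0.01 against a median of -0.03 over the 10 members. These are 516 genes higher and 358 lower, a split that turned to 473 higher and 523 lower with quantile normalization applied again and to 454 and 566 with cyclic loess. Arrays did not overlap between the cerebellar groups for Klf10 and Klf9, which held for 12.6% of all genes.

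Klf10 had levels of 8.68, 8.53, 8.31 and 8.52 in the dexamethasone cerebella B39, B49, B50 and B52. In the vehicle cerebella B78, B79, B80 and B81 it stood at 9.53, 9.68, 9.49 and 9.47. The 2 groups were tight and far apart, with the highest treated array well below the lowest vehicle array. The groups differed by a log2 change of -1.03 ± 0.10, a 2.05-fold fall (adjusted p = 3.27e-05), at rank 30 from the lowest of 18193 genes.

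Klf9 had levels of 11.35, 11.70, 11.52 and 11.88 in dexamethasone cerebella, and 10.99, 11.06, 11.05 and 11.21 in vehicle cerebella. All treated arrays were higher than all vehicle arrays, with B39 nearest to them. The log2 change was 0.53 ± 0.17, or 1.45-fold, and missed the threshold (adjusted p = 0.0784). With the 8 cerebellar arrays fitted alone its adjusted p was 0.038, and with array weights 0.00391.

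Cebpa had levels of 7.05, 6.37, 6.50 and 6.60 in dexamethasone cerebella, and 6.99, 7.09, 6.94 and 7.39 in vehicle cerebella. B39 lay among the vehicle arrays and the other treated arrays below them. The log2 change was -0.47 ± 0.13 (adjusted p = 0.0532), and without B39 it was -0.61 (adjusted p = 0.00445). Klf4 had a like pattern, with 7.19, 6.49, 6.44 and 6.28 in dexamethasone cerebella and 6.98, 6.61, 6.93 and 7.55 in vehicle cerebella. Its log2 change was -0.42 ± 0.19 (adjusted p = 0.267), and without B39 it was -0.62 (adjusted p = 0.0411). Both genes had low signal in cerebellum, at 6.28 to 7.55, somewhat above the array medians of 5.87 to 6.00. RMA compresses differences between dim probe sets. Their cerebellar levels moved beside those of endothelial markers, 6 of 9 of which were called lower with dexamethasone. The log2 summed endothelial level was 10.73 to 10.89 in dexamethasone cerebella and 11.43 to 11.78 in vehicle cerebella, and its part in the result was not tested.

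Klf15, Cebpd, Cebpb, Klf2, Klf13 and Klf6 were also not called in cerebellum. Klf15 had levels of 8.36, 7.94, 7.94 and 7.96 in dexamethasone cerebella, and 8.04, 8.05, 7.91 and 8.57 in vehicle cerebella. Its groups overlapped, with B39 above the other treated arrays and B81 above the other vehicle arrays. The log2 change was -0.09 with a 95% interval of -0.65 to 0.47 (adjusted p = 0.937). Cebpd changed by 0.10 with an interval of -0.42 to 0.61, Cebpb by -0.08 with an interval of -0.42 to 0.26, Klf2 by 0.02 with an interval of -0.29 to 0.32, and Klf13 by 0.06 with an interval of -0.21 to 0.33. Klf6 had 8.59, 8.19, 8.57 and 8.31 in dexamethasone cerebella and 7.98, 7.81, 8.21 and 8.22 in vehicle cerebella. Its log2 change of 0.36 ± 0.16 (adjusted p = 0.256) was not called, and the groups overlapped slightly. B39 was the highest dexamethasone cerebellum for 7 of the 10 members and for 32.9% of all genes. It was also the lowest for 1 member and for 37.4% of all genes. B81 was the highest vehicle cerebellum for 7 members and for 28.4% of all genes.

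The effects of dexamethasone in the 2 tissues were then compared directly, as the lung effect minus the cerebellum effect, which rest on separate vehicle arrays. Of the 10 factors 4 were called with a higher effect in lung and 0 with a lower one, against 9.85% and 11.5% of all genes. The difference was 2.13 ± 0.37 for Klf15 (adjusted p = 0.000677) and 1.70 ± 0.34 for Cebpd (adjusted p = 0.00196). It was 1.51 ± 0.13 for Klf10 (adjusted p = 2.58e-06) and 1.27 ± 0.19 for Cebpa (adjusted p = 0.000169). Klf10 was called in both tissues and in opposite directions, which held for 0.841% of all genes. Of the 357 genes called in both tissues, 60 were higher in lung and lower in cerebellum and 93 were the reverse.

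For Klf9 the difference between tissues was 0.64 ± 0.23 with a 95% interval of 0.15 to 1.14 (adjusted p = 0.0623) and was not called. It was called in 7 of 23 alternative fits, with adjusted p-values of 0.0208 to 0.18, among them those without B31 (0.0208), B28 (0.048) or B52 (0.0418). For Klf6 it was 0.00 with an interval of -0.48 to 0.48, for Cebpb 0.46 with an interval of -0.02 to 0.95, and for Klf4 0.22 with an interval of -0.35 to 0.79. For Klf2 it was -0.18 with an interval of -0.61 to 0.24, and for Klf13 0.03 with an interval of -0.35 to 0.41. The Cebpb difference passed the threshold without B31 (0.62, adjusted p = 0.037).

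With the 4 groups placed in order, dexamethasone lung was highest for Cebpa, Cebpb, Cebpd, Klf6, Klf9, Klf10, Klf13 and Klf15, and vehicle lung for Klf2 and Klf4. Dexamethasone cerebellum was lowest for Cebpa, Cebpb, Klf4 and Klf10, and vehicle cerebellum for Cebpd, Klf2, Klf6 and Klf13. Vehicle lung was lowest for Klf9 and Klf15. Neighbours in this order that were tested and not called were the cerebellar groups of all members but Klf10, the lung groups of Cebpb, Klf2, Klf4, Klf6 and Klf13, and vehicle cerebellum and vehicle lung of Klf9.

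Where a gene had several probe sets, they were read one by one, with p-values adjusted over all 45037. Of the 25 probe sets of the members, 11 were called in lung, all higher, beside 24.0% of all probe sets, and 21 had a change above 0. In cerebellum 1 of 25 was called, that of Klf10, beside 3.23% of all probe sets. Klf9 had 7 probe sets, of which 5 were called in lung at log2 changes of 0.76 to 1.18. The 2 that were not had mean levels of 5.95 and 4.13 and changes of 0.38 and 0.14. In cerebellum 6 of the 7 Klf9 probe sets had changes above 0, and 0 were called.

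The probe sets of Cebpb and Cebpd differed among themselves. The brighter Cebpb probe set gave 0.38 in lung, while the dimmer one gave 0.74 ± 0.17 and was called (adjusted p = 0.00347). The bright Cebpd probe set gave 1.80, while the other, at a mean level of 4.97, gave 0.14 ± 0.13 (adjusted p = 0.493). All 5 Klf6 probe sets had changes above 0 in lung, at 0.36 to 0.51, and 1 of them was called (adjusted p = 0.0406). In cerebellum the 4 brighter Klf6 probe sets gave 0.36 to 0.63, none called, and the dimmest gave -0.15. Klf4 had 2 probe sets with changes below 0 in both tissues, Klf13 had 3 with none called, and Cebpa, Klf2, Klf10 and Klf15 had 1 each.

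**Figure D3:**
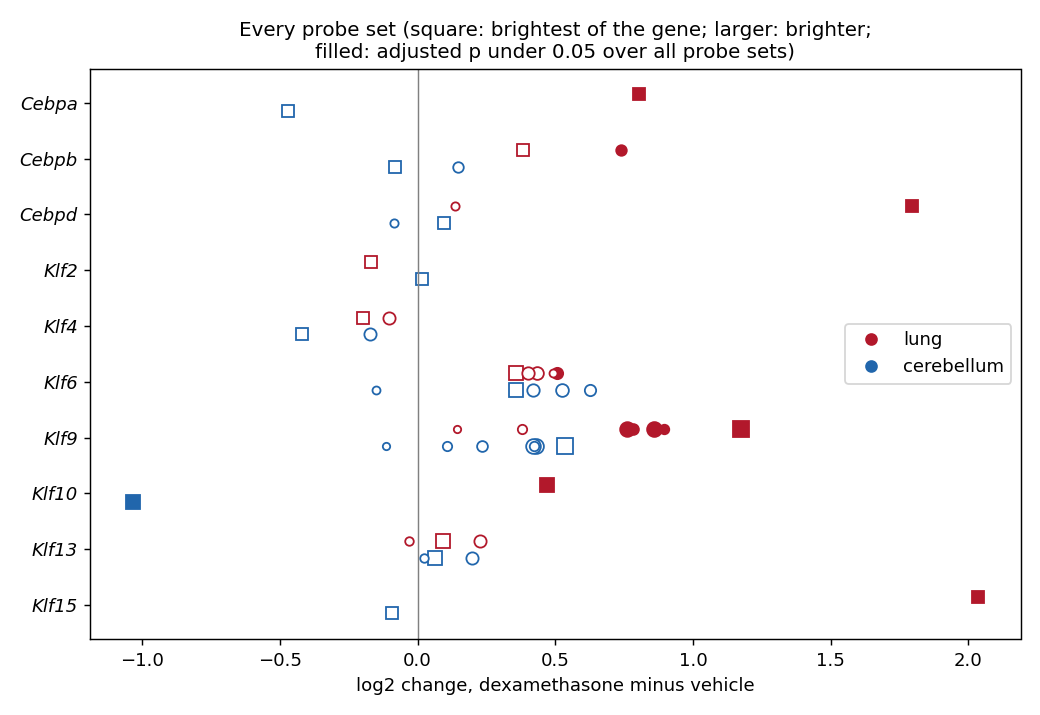
Log2 change with dexamethasone (horizontal axis) of each of the 25 probe sets of the 10 factors, in lung (red, upper) and cerebellum (blue, lower). Squares are the brightest probe set of a gene, larger symbols are brighter, and filled symbols passed an adjusted p of 0.05. For Cebpd the dim second probe set lies near 0 in lung while the bright one lies at 1.80.

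Some relatives of the 10 factors were also called in these tissues, in both directions. Beside them, 15.7% of all genes were called higher in lung and 15.5% lower, and 2.84% and 1.97% in cerebellum. Lists of relatives and of genes that the factors are known to regulate were chosen with earlier results of these data known. Of the other C/EBP genes and partners, 2 of 4 were measured. Cebpg, which dimerises with other C/EBP proteins and lacks an activation domain, had 9.02, 9.91, 9.74 and 10.07 in dexamethasone cerebella and 8.32, 8.31, 8.16 and 8.83 in vehicle cerebella. The groups did not overlap, and the log2 change was 1.28 ± 0.20 (adjusted p = 0.00133). In lung Cebpg changed by 0.21 ± 0.20 (adjusted p = 0.46). Ddit3, the stress-induced partner also called CHOP, rose by 0.57 ± 0.12 in lung (adjusted p = 0.00179) and changed by 0.38 ± 0.12 in cerebellum (adjusted p = 0.0907).

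Of 9 other Krüppel-like genes measured, 2 rose and 2 fell in lung, and 1 fell in cerebellum. Klf5, a factor of lung and gut epithelium, had 10.59, 10.64, 10.58 and 11.13 in dexamethasone lungs and 9.58, 9.73, 9.24 and 9.75 in vehicle lungs. All treated lungs were higher, by 1.16 ± 0.19 on the log2 scale (adjusted p = 0.000169). Klf1, the erythroid factor, rose by 1.23 ± 0.16 at a low signal (adjusted p = 2.03e-05). Of 3 erythroid markers 1 was called higher, or 2 without B46 or without B19, with a log2 summed level of 13.02 to 13.69 in dexamethasone lungs and 12.02 to 12.96 in vehicle lungs, and their part in the level of Klf1 was not tested. Klf12 fell by 0.97 ± 0.19 on the log2 scale in lung (adjusted p = 0.000957) and Klf7 fell by 0.47 ± 0.14 (adjusted p = 0.014).

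Klf11, the closest relative of Klf10 and likewise inducible by TGF-beta, had 8.89, 7.92, 8.42 and 8.28 in dexamethasone cerebella and 9.57, 9.44, 9.42 and 9.54 in vehicle cerebella. Every treated cerebellum was lower, with a log2 change of -1.11 ± 0.15 (adjusted p = 0.00058). In lung Klf11 had 9.70, 10.05, 10.04 and 10.15 with dexamethasone and 9.94, 10.10, 9.97 and 10.09 with vehicle, a change of -0.04 ± 0.15 (adjusted p = 0.881). Of 7 Sp factors, which bind GC boxes, 3 were called lower in lung and 0 in cerebellum. They were Sp6 (-0.41 ± 0.13, adjusted p = 0.0281), Sp5 (-0.66 ± 0.23, adjusted p = 0.037) and Sp1 (-0.29 ± 0.10, adjusted p = 0.0412). The count of Sp factors was 0 to 2 when each lung array was left out in turn.

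Genes that C/EBP factors are known to regulate in lung epithelium rose in part. Their median log2 change in lung was 0.53, against 0.05 over all genes. Of the 6 genes 4 were called higher there and 0 lower, beside 15.7% and 15.5% of all genes. They were the surfactant protein genes Sftpd (1.02 ± 0.16), Sftpa1 (0.70 ± 0.12) and Sftpb (0.68 ± 0.19), and the lipid transporter gene Abca3 (0.37 ± 0.13), with adjusted p-values of 9.28e-05 to 0.0364. Sftpd averaged 14.16 ± 0.13 in dexamethasone lung and 13.14 ± 0.18 in vehicle lung (SD, n = 4 each). Abca3 lost its call without B28, B31, B40, B12 or B19, and the count was then 3. Sftpc changed by 0.04 and Scgb1a1 by 0.16, and neither was called. Markers of alveolar type 2 cells, which share Sftpb, Sftpc and Abca3 with this list, moved with it. Of these markers 2 of 4 were called higher, or 1 where Abca3 lost its call, with a log2 summed level of 15.58 to 15.71 in dexamethasone lungs and 15.27 to 15.46 in vehicle lungs. Of alveolar type 1 markers 3 of 4 were called higher, and 2 or 3 with each lung array left out in turn. Their log2 summed level was 15.33 to 15.47 in dexamethasone lungs and 14.77 to 14.92 in vehicle lungs. The part of both alveolar cell types in the levels of Cebpa and of this list was not tested.

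Acute phase genes known as C/EBP targets were called higher in lung for 6 of 7, beside 15.7% of all genes. Their median log2 change was 1.68. Hp, which binds free haemoglobin, averaged 13.30 ± 0.31 in dexamethasone lung and 11.63 ± 0.20 in vehicle lung (SD, n = 4 each). Lcn2, an iron-binding defence protein gene, rose by 2.18 ± 0.38 and Orm1 by 2.92 ± 0.68, with adjusted p-values of 0.000367 and 0.00327. The Orm1 values were widely spread in dexamethasone lung, at 4.91 to 10.26, against 4.45 to 4.72 in vehicle lung. Il6 rose by 0.99 ± 0.21 at a level of 4.40 to 5.52 in dexamethasone lung, near the dim end (adjusted p = 0.00179). With each lung array left out in turn, 4 to 6 of the 7 were called.

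All 8 myeloid genes known as C/EBP targets were called higher in lung, beside 15.7% of all genes, with a median change of 1.70. With each array left out in turn 7 or 8 were called. Ltf, Ngp and Camp encode granule proteins and Csf3r a growth factor receptor of neutrophils. Ltf averaged 12.01 ± 0.50 in dexamethasone lung and 9.25 ± 0.41 in vehicle lung (SD, n = 4 each), Ngp rose by 2.56 ± 0.26, Camp by 2.44 ± 0.26 and Csf3r by 1.69 ± 0.20. Markers of neutrophils, which share Csf3r, S100a8 and S100a9 with this list, were all called higher, 5 of 5. With each array left out in turn, 4 or 5 of these markers were called. Their log2 summed level was 14.76 to 15.17 in dexamethasone lungs and 13.21 to 13.70 in vehicle lungs. Of macrophage markers 3 of 5 were called higher and 1 lower, and 2 or 3 were higher with each array left out in turn. The log2 summed macrophage level was 11.86 to 12.93 in dexamethasone lungs and 11.57 to 11.84 in vehicle lungs. Neutrophils and macrophages express C/EBP genes. Their part in the lung levels of Cebpa, Cebpb and Cebpd, and of the acute phase and myeloid lists, was not tested.

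In cerebellum none of the epithelial and acute phase genes was called. All but Abca3, Sftpb and Lbp had group means there of 3.852 to 5.885, within or below the array medians of 5.87 to 6.00. For these dim genes the lack of a call says little. Of the myeloid genes 2 of 8, S100a8 (-1.72 ± 0.44) and S100a9 (-1.59 ± 0.41), were called lower there with adjusted p-values of 0.0339 and 0.036. Both lost their call without B49, B50, B52, B78 or B79. Of 6 fat cell genes, 2 were called higher in lung, beside 15.7% of all genes. They were Fabp4 (2.30 ± 0.34) and Lpl (1.25 ± 0.22), with adjusted p-values of 6.59e-05 and 0.000287. The fat cell markers Adipoq and Lep were not called there. Their lung group means of 3.98 to 4.40 were near the dim end, so the lack of a call says little. In cerebellum Lpl fell by 0.91 ± 0.22 on the log2 scale (adjusted p = 0.0201), a call that was lost without B39, B79 or B80.

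In lung 15.7% of all genes were called higher and 15.5% lower. Genes that Klf2 and Klf4 induce in endothelium mostly fell there, although neither factor was called. Of 5 such genes 3 fell and 1 rose: Nos3, endothelial nitric oxide synthase (-0.82 ± 0.14), Tek, the angiopoietin receptor (-0.45 ± 0.11), Thbd, an anticoagulant receptor (-0.53 ± 0.17), and Nqo1, a redox enzyme that rose (0.67 ± 0.19). Thbd (adjusted p = 0.0288) lost its call without B28, B46, B12, B14 or B22, and Nqo1 (adjusted p = 0.0129) without B14. Of 4 genes that these factors repress, 2 fell, namely the VEGF receptor Kdr (-0.92 ± 0.15) and the adhesion molecule Vcam1 (-0.88 ± 0.18), and 0 rose. Endothelial markers, which share Tek and Kdr with these lists, fell for 5 of 9, at a log2 summed level of 13.71 to 13.99 in dexamethasone lungs and 14.14 to 14.34 in vehicle lungs. In cerebellum Tek was called among the 9 measured genes of both Klf lists, at -1.25 ± 0.11 (adjusted p = 3.09e-05), and of the endothelial markers 6 of 9 were called lower, Tek among them. The part of endothelial content in these results was not tested.

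Metabolic genes known as Klf15 targets were called higher in lung for 3 of 7, beside 15.7% of all genes. Their median log2 change was 0.43. Gpt, alanine aminotransferase, averaged 9.38 ± 0.78 in dexamethasone lung and 8.20 ± 0.13 in vehicle lung (SD, n = 4 each). The lowest dexamethasone lung for Gpt was B46 at 8.23, within the vehicle range of 8.04 to 8.36. B46 was the highest dexamethasone lung for Klf15, at 10.30. Prodh, proline dehydrogenase, rose by 0.68 ± 0.19, and Tat, tyrosine aminotransferase, by 0.48 ± 0.16 (adjusted p = 0.0261). Tat lost its call without B31, B46, B12 or B22, and 2 to 4 genes were called with each array left out in turn. In cerebellum 0 of the 7 were called, with a median change of 0.22.

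Of 8 measured genes of the TGF-beta pathway around Klf10, 1 rose and 2 fell in lung. The shares of all genes called were 15.7% higher and 15.5% lower in lung, and 2.84% and 1.97% in cerebellum. The ligands Tgfb2 (-1.87 ± 0.18) and Tgfb3 (-1.15 ± 0.22) fell, the receptor Tgfbr2 rose (0.35 ± 0.09), and the other 5, with the ligand Tgfb1, the receptor Tgfbr1 and the Smad genes among them, were not called. Tgfb2 averaged 9.17 ± 0.50 in dexamethasone lung and 11.04 ± 0.22 in vehicle lung (SD, n = 4 each). In cerebellum only Tgfbr2 was called, at 8.40 ± 0.06 with dexamethasone and 9.14 ± 0.08 with vehicle (SD, n = 4 each; adjusted p = 0.000263). Of these 8 genes only Tgfbr2 was called in both tissues, higher in lung and lower in cerebellum, as Klf10 was. A link between the 2 genes was not tested. Fibroblast markers, 2 of 4 of which fell in each tissue, had log2 summed levels of 13.73 to 14.05 in dexamethasone lungs and 14.56 to 14.74 in vehicle lungs, and of 12.07 to 12.20 in dexamethasone cerebella and 12.56 to 12.95 in vehicle cerebella. Their part in these results was not tested.

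**Figure D4:**
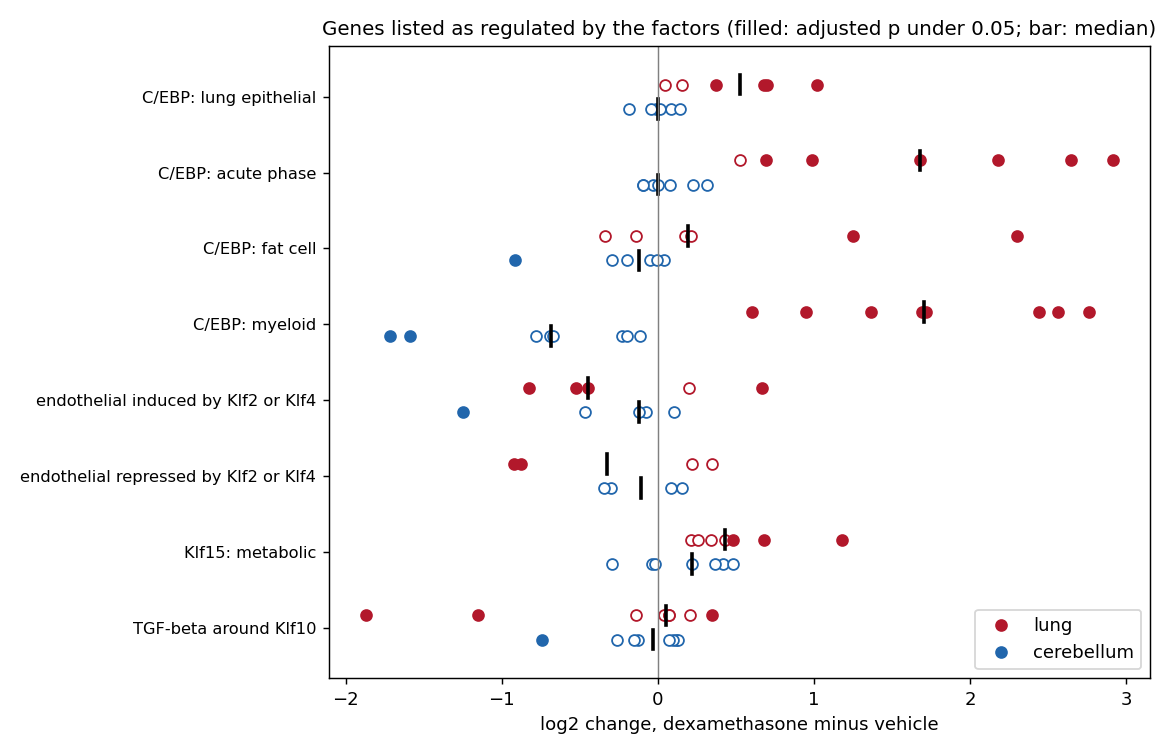
Log2 change with dexamethasone (horizontal axis) of the listed genes known to be regulated by the factors, in lung (red, upper) and cerebellum (blue, lower). Each point is a gene, filled if its adjusted p was under 0.05, and black bars are the median of a list. In lung all 8 myeloid genes lie to the right of 0, with a median of 1.70. In cerebellum they lie to the left, and only 2 of the 8 were called.

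The genes whose profile over the 16 arrays was most like that of the 3 factors with the widest range of group means were found by the root mean square (RMS) difference between log2 values centred on each gene's own mean. Cebpd, with a range of 5.31, was closest to Tinagl1, at an RMS difference of 0.25, then AA986860 at 0.31 and Cdkn2b at 0.33. Tinagl1 averaged 11.39 in dexamethasone lung, 9.69 in vehicle lung, 6.39 in dexamethasone cerebellum and 6.36 in vehicle cerebellum. Klf4, with a range of 4.84, was closest to Itpripl2 (0.22), Tcim (0.23) and Mecom (0.25). Cebpa, with a range of 4.62, was closest to S100a6 (0.21), F11r (0.23) and Anxa3 (0.24). These profiles are dominated by the difference between the organs, and the likeness is a description over arrays of the same animals and platform.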

How the data were processed

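Biotin-labelled target was made from total RNA of whole lung and whole cerebellum and hybridised to Affymetrix arrays for mouse, as the labels state. The authors deposited log2 values. Per the submitters' processing notes these come from RMA. No version or setting of its background and normalization steps is given in the sources used here. Differences between dim probe sets are compressed by RMA. The number of arrays, 4 per group, limits the precision. Groups came from the tissue and treatment labels, and nothing pairs arrays across groups.

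From these values 18193 genes were formed, each from its brightest probe set, after 932 probe sets with several symbols and 9160 with no gene listed were left out. The genes were fitted with limma 3.58.1 in R 4.3.3 on 4 group means with a shared spread and 12 residual degrees of freedom. The Benjamini-Hochberg adjustment ran over all genes, or over 45037 probe sets. Arrays of a group are biological replicates per the series' design text, and whether animals shared a litter is not stated. The fit was tested on simulated data. The alternatives averaged the probe sets of a gene or took each alone, left out dim genes (no group mean of 6), applied quantile or cyclic loess normalization again, used a variance trend, array weights or Xist as a covariate, fitted only the 8 arrays compared, and left out each array. For the gene and marker lists, leaving out arrays was added after the data were seen.

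All 10 members are named. From each list, up to 4 called genes with the smallest adjusted p are named, or the 2 brightest where none was called, and further list genes were named after their values were seen. The members and lists were chosen with earlier results of these data known. Listed genes that no probe set named alone are not analysed here. The labels give a single hybridization date, so batches could not be tested.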

Additional observations from a re-analysis of the deposited data

Results flagged for a closer look

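Klf15 had 2 arrays apart from their group by Dixon's criterion for 4 arrays. In dexamethasone cerebellum B39 stood at 8.36, with a gap of 0.959 of the group's range to the nearest array. In vehicle lung B19 stood at 6.99, with a gap of 0.852 of the range. Among the 40 combinations of a member and a group examined, chance alone flags about 1 in 20.

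The effect of dexamethasone differed between the tissues for 4 members by the limma interaction test. The lung effect minus the cerebellum effect was 1.27 for Cebpa, 1.70 for Cebpd, 1.51 for Klf10 and 2.13 for Klf15 on the log2 scale. For Cebpa, Cebpd and Klf15 only the lung effect was called, and for Klf10 both were.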

How the results depend on the processing

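The lung calls of Cebpa, Cebpd, Klf9, Klf10 and Klf15, the cerebellar call of Klf10, and the tissue differences of Cebpa, Cebpd, Klf10 and Klf15 held under every gene-level alternative run. With a gene's probe sets averaged, the lung change of Cebpd was 0.97 and that of Klf9 0.71. The count of members called in cerebellum, 1, was 2 with dim genes left out, with quantile or loess normalization applied again and with a variance trend (Cebpa and Klf10 lower), and 2 with only the 8 arrays compared (Klf9 higher, Klf10 lower). It was 4 with array weights and ran from 1 to 3 with each array left out, the 3 without B39 being Cebpa, Klf4 and Klf10. Cebpa in cerebellum was called in 6 of 16 alternatives, with adjusted p-values of 0.00292 to 0.155, and Klf4 there in 2 of 16, at 0.0193 to 0.58. Klf9 in cerebellum was called in 2 of 16, at 0.00391 to 0.369. Cebpb in lung was called in 2 of 16, at 0.0098 to 0.256, and Klf6 in lung in 2 of 16, at 0.0411 to 0.31. Changes whose sign turned were uncalled both ways. In cerebellum Cebpb was 0.034 with probe sets averaged and 0.15 by its second probe set. Klf2 was -0.013 with quantile and -0.03 with loess normalization and -0.054 to 0.15 with arrays left out. Cebpd was -0.086 by its second probe set and -0.026 to 0.275 with arrays left out, and Klf15 was -0.194 to 0.052. Single dim probe sets gave -0.15 for Klf6 and -0.12 for Klf9. In lung Klf13 was -0.03 by 1 probe set and -0.008 to 0.17 with arrays left out. For the difference between tissues, Klf6 was -0.042 with array weights, -0.092, -0.019 and -0.12 by single probe sets and -0.14 to 0.10 with arrays left out. Klf13 was -0.045 with array weights, -0.052 by 1 probe set and -0.071 to 0.11. Klf9 between vehicle tissues was 0.15, 0.12 and 0.19 by single probe sets. No paired analysis was possible because the groups share no replicate numbers. Over all genes in cerebellum, 516 higher and 358 lower calls became 962 and 737 with array weights, 315 and 213 without B50, and 356 and 201 without B79. Low signal limits what can be seen of Cebpa, Cebpb, Cebpd, Klf2 and Klf4 in cerebellum.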
